A study of Striga hermonthica with 6 samples.

Results

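The loci described here are the small RNA loci of *Striga hermonthica* that are 423 nt or 1 nt longer. The longer of these lengths is the most frequent one among all small RNA loci of the series, here called the modal length, and loci of either length are called modal-length loci. They were chosen from the coordinates in the count files, with 3 conditions: such a length (end minus start plus 1), no *MIRNA* mark, and a contig that carries 6 or more loci. The rule was met by 2596 of the 25056 loci (10.4%), of which 1058 were 423 nt long and 1538 were 1 nt longer. No read count entered the rule, although the loci themselves were found by ShortStack in small RNA reads of this species. The length is that of the interval which the locus caller reported, not that of an RNA molecule. Whether the caller added flanking bases to the interval is not given in the sources used here. Of the 24988 loci without a *MIRNA* mark, 2 were 400 nt long and 449 were 401 nt long. The 222 loci of 400 nt or less each either began at base 1 of a contig or were the last locus on it. With a flank of 200 nt at each side, 423 nt would stand for a covered stretch of 23 nt and the modal length for one of 24 nt. The count files hold no read positions, so this was not tested, and a locus length is not read here as the extent of small RNA production. Gene overlaps and distances below are those of the reported intervals.

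*S. hermonthica* is a parasitic plant that draws water and nutrients from cereal roots through an organ called the haustorium. Small RNA was sequenced in 6 libraries of the Kibos ecotype, raised on rice (variety Kitaake, given as KitaakeX in the labels) for 45 days at 30 °C with 16 hours of light. The labels give 2 leaf libraries of stage 6, 2 haustorium libraries of stage 6, and 2 haustorium libraries, numbered 1 and 3, to which no stage is assigned. Stage 6 is not defined there, and nothing says whether the libraries without a stage were of stage 6 or of another. A difference from them is not read here as one between stages. Nothing says either that replicates came from separate plants. The p-values below therefore measure spread between libraries only, and this spread may be technical.

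In plants, many small RNA loci that are not *MIRNA* genes give rise to short-interfering RNAs. A Dicer-like endonuclease cuts these from double-stranded RNA, and Argonaute proteins then carry them. The best-studied group guides DNA methylation to transposons and repeats and is most often found between genes or beside them. The count files hold no RNA sizes and no strand, so it could not be tested which kind of small RNA the modal-length loci produce. They also hold no gene or family names, so the labelled tissues could not be checked against marker genes, and rice small RNAs that match the *Striga* assembly could not be told apart from those of the parasite in the haustorium.

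Counted reads per library lay between 3031863 and 8381235. Leaf replicate 1 and stage 6 haustorium replicate 2 stood apart from the other 4 libraries. Their TMM factors, by which edgeR scales the library totals, were 1.74 and 1.78, against 0.609 to 0.979 elsewhere. They come from different tissues, so values below are given per library, in replicate order, or with and without them. Because whole tissues were sequenced, a lower count can reflect fewer cells of a type or less RNA in each cell, and these cannot be told apart.

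The modal length was that of 1606 loci before the conditions on the mark and the contig. The length of 415 nt came next with 1188 loci, and 423 nt followed with 1113. Among the loci that met both conditions, the number was 621 at 420 nt, 763 at 421 nt, 942 at 422 nt, 1058 at 423 nt and 1538 at the modal length. At 425 nt, just outside the rule, there were 463. The numbers thus climbed over 5 lengths and dropped within a single nucleotide. All loci had a median length of 422 nt and ranged from 102 to 8925 nt. Of 68 *MIRNA* loci, 0 had either length. The condition on the contig left out 123 loci of these lengths.

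**Figure D1:**
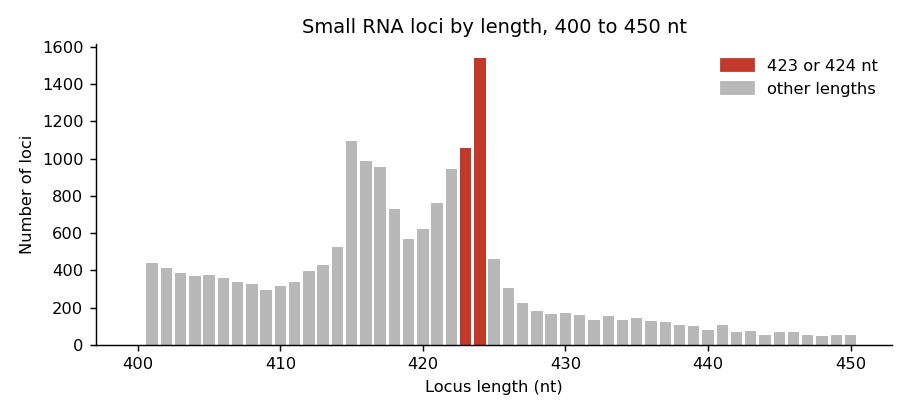
Number of small RNA loci (y axis) at each length in nt (x axis), for loci without a *MIRNA* mark on contigs with 6 or more loci. The red bars are the 1058 loci of 423 nt and the 1538 loci 1 nt longer, and the grey bars are other lengths, with a second maximum of 1093 loci at 415 nt and 463 loci at 425 nt.

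The share of a library's counted reads that fell in the 2596 loci differed widely between libraries of a group. It was 3.66% and 1.11% in leaf replicates 1 and 2, and 1.43% and 3.65% in stage 6 haustorium replicates 1 and 2. In haustorium without a stage it was 1.82% in replicate 1 and 0.972% in replicate 3. The group values were 2.39% ± 1.80 in leaf, 2.54% ± 1.57 in stage 6 haustorium and 1.39% ± 0.598 in haustorium without a stage (SD, n = 2 each). The ranges of the 3 groups overlapped. The 2 highest shares were those of the libraries that stood apart, and without them leaf had 1.11% and stage 6 haustorium 1.43%. In reads, the loci held 269195 and 92623 in leaf, 43505 and 253864 in stage 6 haustorium, and 152350 and 66016 in haustorium without a stage. The longer loci held the larger part in every library, for example 2.17% against 1.498% for 423 nt in leaf replicate 1 and 0.578% against 0.394% in haustorium replicate 3.

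A locus with a count of 0 can still hold up to 3 reads by chance of sampling, which is between 0.358 and 0.989 CPM in these libraries (CPM is the count scaled by the counted reads of the library). Such limits cover counting error only. In leaf replicates 1 and 2, 89 and 151 of the 2596 loci had 0 reads (3.43% and 5.82%). Stage 6 haustorium replicates 1 and 2 had 335 and 63 (12.9% and 2.43%), and haustorium replicates 1 and 3 without a stage had 152 and 268 (5.86% and 10.3%). The highest number was in the library with the fewest counted reads. The lowest numbers were in the 2 libraries with the highest share of reads in these loci. Group values were 4.62% ± 1.69 in leaf, 7.67% ± 7.41 in stage 6 haustorium and 8.09% ± 3.16 in haustorium without a stage (SD, n = 2 each), and again the groups overlapped. With every library thinned to 3031863 reads, the shares became 6.91%, 7.90% and 12.1%. Among all other loci, without thinning, 4.91% and 7.09% were at 0 in leaf replicates 1 and 2. It was 11.3% and 6.70% in stage 6 haustorium, and 5.29% and 8.84% in haustorium without a stage. Modal-length loci differed most from the other loci in stage 6 haustorium replicate 2 (2.43% against 6.70%). This was not particular to them. In that library the share was 3.48% for loci of 420 to 422 nt and 2.38% for loci of 425 to 799 nt. It was 18.2% for loci of 415 to 419 nt, which are among the other loci.

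Across libraries, 1893 of the loci (72.9%) had reads in all 6, close to the 72.0% of all loci. A further 450 had 0 reads in 1 library, 179 in 2, 48 in 3, 24 in 4 and 2 in 5, and no locus was at 0 in all 6. Since the loci were found in reads of this series, the last of these was largely fixed in advance. Both leaf libraries were at 0 for 14 loci, both stage 6 haustorium libraries for 27, both haustorium libraries without a stage for 43, and all 4 haustorium libraries for 5. The share over all loci is not given for these counts, and the libraries differ in depth. No pattern of tissue or stage is read from them. At a floor of 10 reads the libraries lay further apart. This floor is in raw reads and so also follows library depth, which was lowest in stage 6 haustorium replicate 1. In leaf, 93.3% and 81.1% of the loci reached it, against 58.6% and 94.6% in stage 6 haustorium. In haustorium without a stage, 84.5% and 68.8% did. Only 985 loci reached 10 reads in every library.

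**Figure D2:**
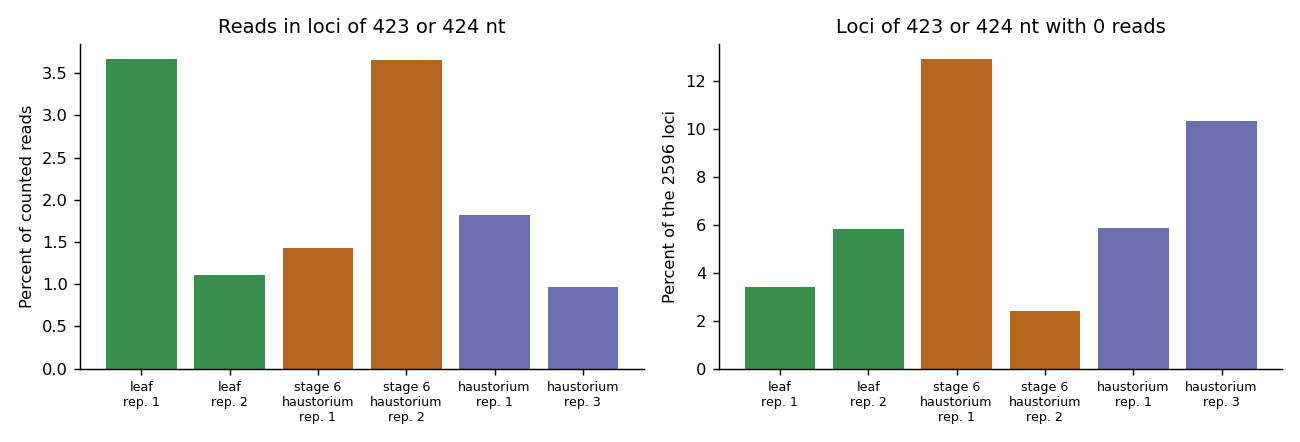
Left, percent of counted reads in the modal-length loci. Right, percent of the 2596 loci with 0 reads. Bars are single libraries (green leaf, brown stage 6 haustorium, violet haustorium without a stage). Leaf replicate 1 and stage 6 haustorium replicate 2 have the tallest bars on the left (3.66% and 3.65%) and the shortest on the right (3.43% and 2.43%).

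The loci were of low abundance and fairly uniform. Across all loci, quartiles of the mean of the 3 group means lay at 5.39, 7.86 and 12.4 CPM, and 64.8% were under 10 CPM. Over the same mean, the modal-length loci lay between 2.67 and 149.8 CPM. Their quartiles were at 6.07, 7.47 and 9.33 CPM, and 81.4% were under 10 CPM. The median locus had 12.2 and 3.60 CPM in leaf replicates 1 and 2, 4.29 and 12.9 CPM in those of stage 6 haustorium, and 6.20 and 2.94 CPM in haustorium replicates 1 and 3. In reads, this was 90 and 30, 13 and 90, and 52 and 20. After TMM scaling the medians came closer together, at 7.04 and 5.54 CPM in leaf, 5.13 and 7.29 CPM in stage 6 haustorium, and 6.34 and 4.84 CPM in haustorium without a stage. Both libraries that stood apart remained on top, and the 3 groups overlapped on either scale. Over all loci, medians on library totals were 12.8 and 4.08 CPM in leaf and 4.95 and 12.2 CPM in stage 6 haustorium. In haustorium without a stage they were 6.68 and 3.83 CPM, so both libraries that stood apart were highest there too.

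**Figure D3:**
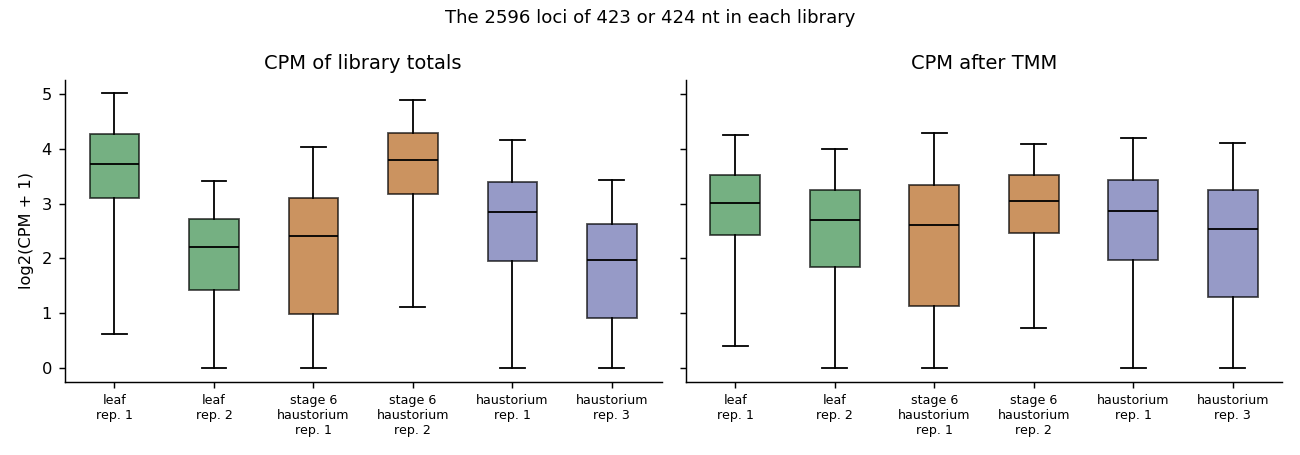
Distribution of log2(CPM + 1) over the 2596 loci in each library, with CPM over library totals on the left and after TMM on the right. Boxes span the quartiles, the line is the median, whiskers reach the 5th and 95th percentiles, and colours mark leaf (green), stage 6 haustorium (brown) and haustorium without a stage (violet). Medians range from 2.94 to 12.9 CPM on the left and from 4.84 to 7.29 CPM on the right.

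The highest CPM of a locus was usually in one of the libraries that stood apart. This held for 2252 of the 2596 loci (86.7%), with 1072 in leaf replicate 1 and 1180 in stage 6 haustorium replicate 2, while leaf replicate 2 was highest for 20. Among all other loci the share was 75.6%. After TMM scaling the shares were 45.0% for modal-length loci and 36.4% for the others. Both of these libraries were above all of the other 4 for 1255 loci (48.3%, against 42.8% of all loci) and both were below for 8 (0.308%, against 5.33% of all loci). After TMM these became 259 (9.98%, against 8.54%) and 44 (1.69%, against 9.08%). No test over loci was run on these differences, since loci of a library share its depth and preparation, and the part of RNA quality or library preparation was not tested.

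Within the class, length and abundance were not matched. The loci of the modal length had the higher median (7.75 CPM, against 7.05 CPM for 423 nt), but none exceeded 19.6 CPM, whereas 423 nt loci reached 149.8 CPM. The 10 most abundant loci were all 423 nt long, as were 16 of the top 20, 23 of the top 50 and 34 of the top 100, while 40.8% of the class were 423 nt. All 6 loci of 50 CPM or more were 423 nt. The first 11 loci by abundance were 423 nt, and the most abundant locus of the modal length, Cluster_23155, was in place 12. The upper end took only a small part of the reads, since the 10 highest loci of a library held 2.87% to 7.92% of its reads in the class.

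Cluster_16068 was the most abundant locus. It lies on contig CACSLK010027831.1 of the SHERM assembly from 13967817 to 13968239, inside the annotated gene SHERM_26431 (13964200 to 13971723). Its abundance was 204 and 324 CPM in leaf, 179 and 1.29 CPM in stage 6 haustorium, and 144 and 46.1 CPM in haustorium without a stage. On library totals both leaf libraries were above all haustorium libraries, and stage 6 haustorium replicate 2, with only 9 reads, was far below the rest. After TMM scaling the groups overlapped, with 117 and 498 CPM in leaf and 215 CPM in stage 6 haustorium replicate 1. Cluster_5660 (contig CACSLK010012531.1, 2875652 to 2876074) lies inside the gene SHERM_15352, which spans 2874853 to 2879500. It had 114 and 229 CPM in leaf, 77.5 and 101 CPM in stage 6 haustorium and 57.0 and 25.9 CPM in haustorium without a stage, so that on library totals leaf was highest, stage 6 haustorium intermediate and the other haustorium libraries lowest. After TMM scaling leaf, at 65.5 and 353 CPM, overlapped stage 6 haustorium, at 92.8 and 56.8 CPM. The edgeR log2 fold change of leaf against haustorium was 1.77 (SE 0.82) with an unadjusted quasi-likelihood p of 0.0791, and it was 0.085 without leaf replicate 2.

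Cluster_11645 (contig CACSLK010024742.1, 7454913 to 7455335) lies 11254 nt from the nearest gene, SHERM_21288. It had 1392 and 609 reads in leaf (189 and 73.1 CPM), 260 and 640 in stage 6 haustorium (85.8 and 92.1 CPM), and 4 and 3 in haustorium without a stage (0.477 and 0.442 CPM). Leaf and stage 6 haustorium overlapped in CPM, though not after TMM scaling, and both libraries without a stage were far below them on either scale. The log2 fold change of stage 6 haustorium against haustorium without a stage was 6.97 (SE 0.93) in edgeR, with the lowest unadjusted p of the class (0.000439) and an adjusted p of 0.999 over all loci tested. DESeq2 gave an adjusted p of 8.26e-09 for the same contrast. Leaf exceeded the mean of the haustorium groups by 4.01 (SE 0.61) on the log2 scale, with an adjusted p of 0.000228 in DESeq2 and 1.00 in edgeR. These contrasts of Cluster_11645 were singled out after its values were seen.

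The other abundant loci had libraries of a group that differed widely. Cluster_20642 (contig CACSLK010030444.1, 5286 to 5708) had 103 and 0.240 CPM in leaf, 13.5 and 414 CPM in stage 6 haustorium, and 0.955 and 1.77 CPM in haustorium without a stage. Its reads were thus concentrated in the 2 libraries that stood apart. Cluster_494 (contig CACSLK010000984.1, 12733455 to 12733877) had 153 and 67.5 CPM in leaf, 72.6 and 86.0 CPM in stage 6 haustorium, and 27.2 and 0.294 CPM in haustorium without a stage. Leaf and stage 6 haustorium overlapped in CPM, though not after TMM scaling, and both other libraries were lower. Cluster_15369 and Cluster_15371 lie 1683 nt apart on contig CACSLK010027802.1, from 469054 to 469476 and from 471160 to 471582, with Cluster_15370, which is not in the class, between them. Cluster_15371 had 105 and 6.24 CPM in leaf, 137 and 4.46 CPM in stage 6 haustorium, and 65.1 and 0.883 CPM in haustorium without a stage. Cluster_15369 had 52.9 and 10.6 CPM in leaf, 0.660 and 65.7 CPM in stage 6 haustorium, and 87.5 and 0.147 CPM in haustorium without a stage. These loci were high in different stage 6 haustorium libraries, and both were close to absent in haustorium replicate 3.

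Cluster_7160 (contig CACSLK010015970.1, 732643 to 733065) was highest in a haustorium library. It overlaps the end of the gene SHERM_16995 (730886 to 732818) with less than 200 nt of its reported interval. It had 6.12 and 6.72 CPM in leaf, 39.9 and 1.01 CPM in stage 6 haustorium, and 43.1 and 161 CPM in haustorium without a stage. Leaf lay inside the range of stage 6 haustorium and below both libraries without a stage. Cluster_11616 (contig CACSLK010024742.1, 6373594 to 6374016) had 0.136 and 54.1 CPM in leaf, 13.9 and 6.90 CPM in stage 6 haustorium, and 28.0 and 79.7 CPM in haustorium without a stage. Cluster_24725 (contig CACSLK010034598.1, 26210170 to 26210592) had 78.0 and 20.5 CPM in leaf, 16.2 and 15.8 CPM in stage 6 haustorium, and 0 and 27.2 CPM in haustorium without a stage. Both of these loci overlapped between leaf and haustorium. Of the 10 loci, 3 overlap a gene. For 9 of them the edgeR log2 fold change of leaf against haustorium had an unadjusted p above 0.05, Cluster_11645 being the exception.

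**Figure D4:**
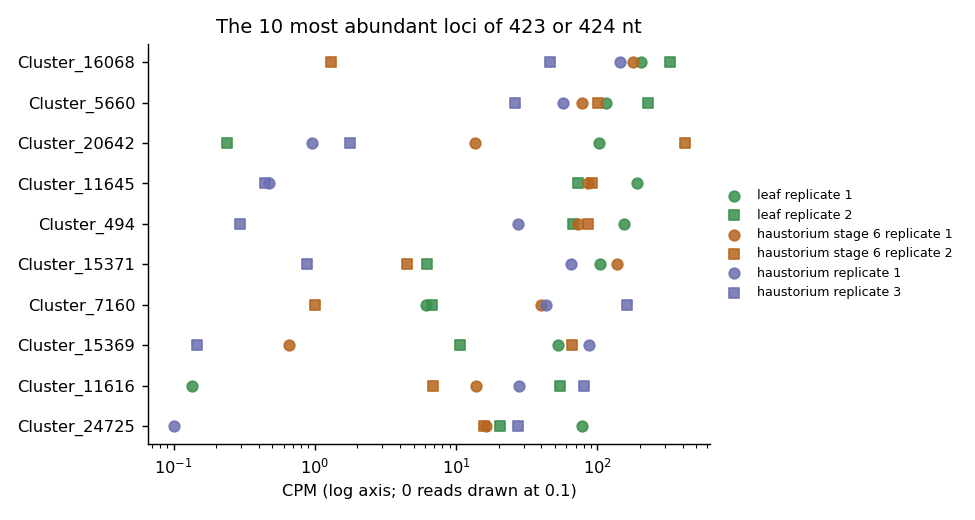
CPM (x axis, log scale, 0 reads drawn at 0.1) of the 10 most abundant loci (y axis, most abundant on top). Each point is a library: green leaf, brown stage 6 haustorium and violet haustorium without a stage, with circles for replicate 1 and squares for replicate 2 or 3. Cluster_11645 has both violet points near 0.5 CPM and the other 4 at 73.1 CPM or above.

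To ask whether the loci were more abundant in leaf or in haustorium, groups were compared by edgeR over all loci, and 2548 of the 2596 loci passed its filter on low counts. For leaf against the mean of both haustorium groups, edgeR called 0 of them at an adjusted p of 0.05, as it called 0% of all loci tested. At an unadjusted p under 0.05 there were 79 loci (55 higher and 24 lower in leaf), which is 3.10%, against 3.25% of all loci tested. The median log2 fold change was 0.10, with quartiles at -0.43 and 0.71, against a median of 0.12 over all loci, and the median SE of a locus was 0.96. DESeq2 called 6 loci higher and 10 lower in leaf, beside 0.391% higher and 0.411% lower among all loci, and 13 of the 16 had 0 reads in at least 1 library. Both leaf libraries were above all 4 haustorium libraries in CPM for 35 loci (1.35%, with 1.63% of all loci) and below them for 41 (1.58%, with 2% of all loci). These shares are close to those of all loci. The counts moved with the libraries used, and the background moved with them. Without leaf replicate 2, leaf was above for 1079 loci (41.6%, against 39.0% of all loci), and without leaf replicate 1 it was below for 616 (23.7%, against 20.5%). After TMM scaling the counts were 125 above (4.82%, against 4.85% of all loci) and 116 below (4.47%, against 3.75%).

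Of the 7 loci with no overlap between leaf and haustorium and a mean of 10 CPM or more, Cluster_23941 (contig CACSLK010034598.1, 9120004 to 9120426) had the highest fold change. It overlaps the gene SHERM_07848 (9119171 to 9120196) with less than 200 nt of its reported interval. It had 426 and 57 reads in leaf (58.0 and 6.84 CPM), 7 and 41 in stage 6 haustorium (2.31 and 5.90 CPM), and 7 and 19 in haustorium without a stage (0.835 and 2.80 CPM). Leaf replicate 1 was far above the rest, and leaf replicate 2 was just above stage 6 haustorium replicate 2. Its log2 fold change was 2.93 (SE 0.88), and Cluster_5660 and Cluster_16068 followed with 1.77 (SE 0.82) and 1.49 (SE 1.70) in edgeR. Of these, Cluster_23941 alone remained without overlap after TMM scaling. The value of Cluster_16068 became 0.090 once leaf replicate 2 was left out and 5.08 once stage 6 haustorium replicate 1 was. On the other side, Cluster_107 (contig CACSLK010000214.1, 3227936 to 3228358) lies 100 nt from the gene SHERM_00786. It had 0.136 and 4.08 CPM in leaf, 15.5 and 30.8 CPM in stage 6 haustorium, and 25.1 and 8.39 CPM in haustorium without a stage. Its log2 fold change was -2.59 (SE 1.54), and -7.66 without leaf replicate 2. Cluster_16174 (contig CACSLK010027831.1, 15864835 to 15865258) had 14 and 26 reads in leaf, 15 and 165 in stage 6 haustorium, and 122 and 92 in haustorium without a stage, with a log2 fold change of -2.20 (SE 0.91). Cluster_22072 (contig CACSLK010031421.1, 22247866 to 22248289) lies 955 nt from SHERM_06133 and varied less, with 6.94 and 2.16 CPM in leaf, 11.2 and 22.9 CPM in stage 6 haustorium, and 12.2 and 9.57 CPM in haustorium without a stage. Its log2 fold change was -1.89 (SE 0.59). In edgeR the adjusted p was 1 for each of these loci after rounding, so no difference passed the test.

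The comparison of leaf with stage 6 haustorium uses the same leaf libraries and sets tissues of one labelled stage side by side. Here edgeR called 0 modal-length loci, as it called 0% of all loci. At an unadjusted p under 0.05 there were 48 (24 higher and 24 lower in leaf), or 1.88%, against 2% of all loci. The median log2 fold change was -0.02 (quartiles -0.59 and 0.61), against 0.05 over all loci. DESeq2 called 2 loci higher and 4 lower in leaf, with a background of 0.231% higher and 0.231% lower, and all 6 had 0 reads in at least 1 library. Leaf was above stage 6 haustorium without overlap for 79 loci (3.04%, background 4.76%) and below for 239 (9.21%, background 8.55%). After TMM scaling there were 310 above (11.9%, against 12.4% of all loci) and 383 below (14.8%, against 11.5%).

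Among the loci of 10 CPM or more without overlap, Cluster_19648 (contig CACSLK010030184.1, 3441838 to 3442260) stood at the leaf end. It had 268 and 89 reads in leaf, 0 and 48 in stage 6 haustorium, and 12 and 137 in haustorium without a stage, with an edgeR log2 fold change of 3.14 (SE 1.93), and 9.95 without stage 6 haustorium replicate 2. Next were Cluster_23941, at 2.84 (SE 1.12), and Cluster_12764 (contig CACSLK010027624.1, 879777 to 880200), at 1.67 (SE 0.95), which was 0.92 without stage 6 haustorium replicate 2 and 3.02 without replicate 1. Cluster_12764 had 196 and 47 reads in leaf, 16 and 18 in stage 6 haustorium, and 152 and 48 in haustorium without a stage, where it overlapped leaf. At the stage 6 haustorium end, Cluster_16834 (contig CACSLK010027833.1, 9944491 to 9944913) had 0 reads in both leaf libraries, 170 and 68 in stage 6 haustorium, and 0 and 21 in haustorium without a stage. On library totals, with 3 reads allowed in each leaf library, it was at least 85.7-fold lower in leaf than in stage 6 haustorium. This bound rests on stage 6 haustorium replicate 1, since it was 25.5-fold without that library and 145.9-fold without replicate 2, and the DESeq2 adjusted p was 0.0697. Cluster_24279 (contig CACSLK010034598.1, 17286826 to 17287249) had 1 and 0 reads in leaf, 100 and 139 in stage 6 haustorium, and 1 and 66 in haustorium without a stage. Cluster_11046 (contig CACSLK010024540.1, 11845092 to 11845515) had 4 and 2 reads in leaf, 125 and 13 in stage 6 haustorium, and 287 and 0 in haustorium without a stage. Its edgeR log2 fold change of -6.14 became -1.61 without stage 6 haustorium replicate 1. Both of these loci were also near absent in 1 of the libraries without a stage.

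Between the haustorium groups, modal-length loci lay above without overlap at stage 6 at a share close to that of all loci and below at a lower share than all loci, and none was called by edgeR. For stage 6 haustorium against haustorium without a stage, edgeR called 0 loci, with 0% of all loci called. At an unadjusted p under 0.05 there were 99 (72 higher and 27 lower at stage 6), or 3.89%, against 4.39% of all loci. The median log2 fold change was 0.17 (quartiles -0.52 and 0.88), against 0.02 over all loci. The median depends on scaling and on 1 library: it was 0.93 with library totals in place of TMM and -0.24 without stage 6 haustorium replicate 2. DESeq2 called 29 loci higher and 5 lower at stage 6, with a background of 0.801% higher and 0.83% lower among 24084 loci with an adjusted p. Of these 34, 29 had 0 reads in at least 1 library. Stage 6 haustorium was above without overlap for 691 loci (26.6%, background 25.7%) and below for 90 (3.47%, background 8.98%). After TMM scaling, 495 were above (19.1%, against 17.9% of all loci) and 314 below (12.1%, against 16.9%).

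At the stage 6 end of this comparison, 3 loci had 0 reads in both haustorium libraries without a stage. Cluster_4971 (contig CACSLK010012206.1, 5830488 to 5830911) had 89 and 166 reads in stage 6 haustorium, and 66 and 5 in leaf. On library totals, with 3 reads allowed in each library at 0, it was at least 66.6-fold higher in stage 6 haustorium. Its DESeq2 adjusted p was 0.0015. Cluster_18434 (contig CACSLK010027842.1, 10023208 to 10023630) had 76 and 95 reads in stage 6 haustorium and 149 and 75 in leaf, so it was present in all 4 stage 6 libraries of either tissue. On library totals it was at least 48.4-fold higher in stage 6 haustorium, with a DESeq2 adjusted p of 0.000949. Cluster_24629 (contig CACSLK010034598.1, 23206278 to 23206700) had 1 and 408 reads in stage 6 haustorium and 71 and 2 in leaf. On library totals it was at least 73.8-fold higher in stage 6 haustorium, through replicate 2 alone. Without that library its level was 0.825 times the limit for a count of 0, which gives no bound. Its DESeq2 adjusted p was 0.0668. In edgeR the unadjusted p was 0.00393 for Cluster_4971, 0.00207 for Cluster_18434 and 0.0403 for Cluster_24629, and none passed after adjustment.

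At the other end, Cluster_19803 (contig CACSLK010030184.1, 5256049 to 5256472) had 0 and 61 reads in stage 6 haustorium, 237 and 221 in haustorium without a stage, and 0 and 137 in leaf. Its log2 fold change was -3.95 (SE 2.74) in edgeR, and -11.1 without stage 6 haustorium replicate 2. Cluster_6100 (contig CACSLK010013932.1, 1185233 to 1185656) had 1 and 28 reads in stage 6 haustorium, and 45 and 112 in haustorium without a stage, with a log2 fold change of -3.48 (SE 1.51). Its highest count, 326, was in leaf replicate 1. Cluster_14598 (contig CACSLK010027752.1, 25104136 to 25104559) had 1 and 34 reads in stage 6 haustorium, 200 and 45 in haustorium without a stage, and 223 and 38 in leaf. Its log2 fold change was -3.37 (SE 1.15). In each of these loci, stage 6 haustorium replicate 1, the shallowest library, had 0 or 1 read.

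Absence in one library often went with many reads in another. Of the 2596 loci, 604 had 0 reads in at least 1 library and 100 or more in another, as had 5018 of all 25056. The highest count of such a locus was in Cluster_1965 (contig CACSLK010003174.1, 16089152 to 16089574), with 781 and 0 reads in leaf, 31 and 2 in stage 6 haustorium, and 0 and 2 in haustorium without a stage. Nearly all of its reads were in leaf replicate 1. Cluster_23155 (contig CACSLK010034050.1, 3435370 to 3435793), the most abundant one of the modal length, had 649 and 47 reads in leaf, 3 and 139 in stage 6 haustorium, and 23 and 0 in haustorium without a stage. Cluster_24725, described above, was the third. Over the 1893 loci with reads in every library, the ratio of the highest to the lowest CPM had a median of 9.69, and 931 loci were above 10.

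Only 2 loci had a ratio of 2 or less on library totals. Cluster_24334 (contig CACSLK010034598.1, 17911011 to 17911434) had 9.66 and 12.1 CPM in leaf, 9.24 and 18.0 CPM in stage 6 haustorium, and 10.6 and 14.7 CPM in haustorium without a stage, a ratio of 1.95. Cluster_21014 (contig CACSLK010030875.1, 3051879 to 3052301), 684 nt from SHERM_04874, had 6.80 and 5.64 CPM in leaf, 6.93 and 11.2 CPM in stage 6 haustorium, and 10.02 and 7.21 CPM in haustorium without a stage (ratio 1.99). Cluster_8070 (contig CACSLK010017620.1, 1403164 to 1403587), 483 nt from SHERM_17587, came next with a ratio of 2.01. Its abundance was 11.02 and 7.80 CPM in leaf, 6.60 and 12.2 CPM in stage 6 haustorium, and 6.09 and 9.42 CPM in haustorium without a stage. On this scale stage 6 haustorium replicate 2 was the highest for each. After TMM scaling the ratios were 4.36 for Cluster_24334, 3.03 for Cluster_21014 and 2.49 for Cluster_8070, and haustorium replicate 3 was the highest for each, so the steadiness holds on library totals only.

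Most of the loci lie between annotated genes. Of the 2596, 250 (9.63%) overlap a gene of the SHERM annotation, 198 of them entirely within it, against 11.6% of the other loci. A gene lies within 1000 nt of a further 648 (24.96%), against 20.2% of the other loci, and 1000 to 5000 nt away for 871 (33.6%). Another 825 (31.8%) are over 5000 nt away, and 2 are on contigs without an annotated gene. The other loci include 1391 on such contigs, which lowers their shares near a gene. Within 1000 nt, the share was 26.3% for loci of 425 to 799 nt. It was 21.2% for loci of 420 to 422 nt and 14.2% for loci of 415 to 419 nt. Among the 2344 loci between genes the median distance was 2658.5 nt, against 3280 nt for the other loci, 3110 nt for loci of 420 to 422 nt, 5440 nt for loci of 415 to 419 nt and 2542 nt for loci of 425 to 799 nt. The loci thus lay at about the distance of the longer class and nearer to genes than the class of 415 to 419 nt. By length, 116 of the 423 nt loci (10.96%) and 134 of the longer ones (8.71%) overlap a gene. Abundance differed little with position, with medians of 7.47 CPM for loci that overlap a gene, 7.64 CPM within 1000 nt and 7.40 CPM beyond. The annotation used gives gene spans without strand, exons or products, so exonic and intronic positions were not separated. With a flank of 200 nt at each side, the covered stretches of Cluster_7160 and Cluster_23941 would lie outside their genes. Without read positions this was not tested.

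The loci were spread over the assembly. They occurred on 101 of the 118 contigs with 6 or more loci, and the contigs with the most were CACSLK010034598.1 with 146 of its 1159 loci and CACSLK010030184.1 with 144 of 1200. On the 61 contigs with 100 or more loci, they made up between 5.77% and 16.5% of the loci, with a median of 11.3%. The nearest other locus was a median of 5170.5 nt away, against 5408 nt for the other loci, and 506 (19.5%) had one within 1000 nt, against 20.8%. Within the class, 54 loci lay within 1000 nt of another, and nearest ones were a median of 60087 nt apart. The class holds 10.4% of all loci, and other sets of that size were not measured. This spacing is therefore not read as a trait of the class.

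The pairs lying closest together did not have matching counts. Their distances are between reported intervals, and with flanks the covered stretches would lie further apart. Cluster_19578 and Cluster_19579 are 2 nt apart on contig CACSLK010030184.1 (2062730 to 2063152 and 2063155 to 2063578). Cluster_19578 had 96 and 14 reads in leaf, 13 and 142 in stage 6 haustorium, and 24 and 1 in haustorium without a stage. Cluster_19579 had 9 and 65 reads in leaf, 0 and 330 in stage 6 haustorium, and 2 and 23 in haustorium without a stage. The order of the leaf libraries was reversed between them, while stage 6 haustorium replicate 2 was highest for both. Cluster_12210 and Cluster_12211 are 9 nt apart on contig CACSLK010026072.1 (3933518 to 3933941 and 3933951 to 3934373). Cluster_12210 had 146 and 29 reads in leaf, 32 and 74 in stage 6 haustorium, and 0 in both libraries without a stage. There it was at least 26.5-fold lower on library totals than in stage 6 haustorium (DESeq2 adjusted p of 0.0058). Cluster_12211 had 251 and 31 reads in leaf, 0 and 3 in stage 6 haustorium, and 1 and 0 in haustorium without a stage. Its log2 fold change of leaf against haustorium was 6.64 (SE 1.30) in edgeR, with an adjusted p of 0.00644 in DESeq2. Both loci of this pair had reads in leaf and close to none in haustorium without a stage, but they differed at stage 6 haustorium.

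Compared with the nearest length classes, modal-length loci were between the shorter and the longer ones in abundance. Their median of 7.47 CPM was above the 6.44 CPM of the 2326 loci of 420 to 422 nt and the 5.92 CPM of the 4332 loci of 415 to 419 nt, and below the 12.8 CPM of the 7766 loci of 425 to 799 nt. The classes also varied differently across libraries. Median CPM of the modal-length loci was 12.2 in leaf replicate 1 against 3.60 in leaf replicate 2, and that of the 420 to 422 nt loci was 10.5 against 3.24. For loci of 425 to 799 nt it was 21.2 against 6.66, and for loci of 415 to 419 nt 5.44 against 3.24. In haustorium replicate 3, the 415 to 419 nt loci held 8.51% of the counted reads, against 0.972% for modal-length loci, whereas in stage 6 haustorium replicate 2 the shares were 2.97% and 3.65%. In the classes from 420 to 799 nt, both libraries that stood apart had a higher median than the other 4. In the 415 to 419 nt class this did not hold, since stage 6 haustorium replicate 2 had a median of 3.88 CPM, against 5.37 and 4.27 CPM in haustorium without a stage, and the largest share of loci at 0 of any library (18.2%). These are descriptions of 6 libraries, with no test over loci.

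**Figure D5:**
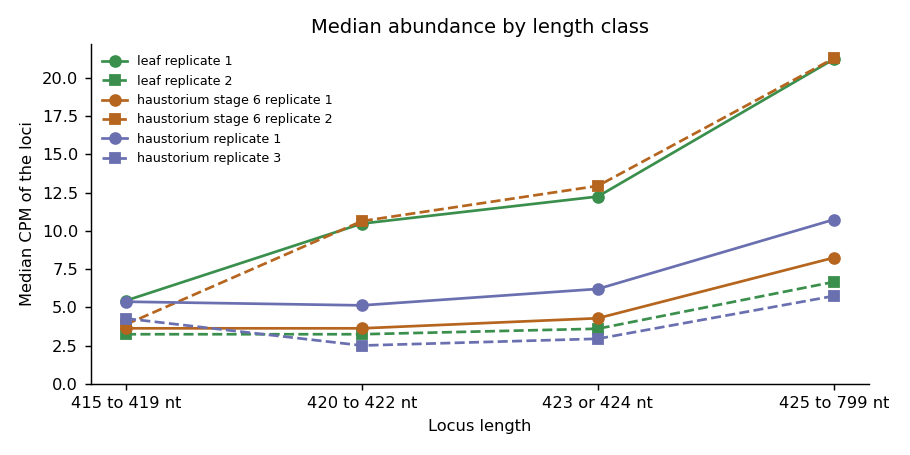
Median CPM (y axis) of the loci in 4 length classes (x axis), with a line for each of the 6 libraries (green leaf, brown stage 6 haustorium, violet haustorium without a stage). For modal-length loci, leaf replicate 1 and stage 6 haustorium replicate 2 lie at 12.2 and 12.9 CPM and the other libraries at 2.94 to 6.20 CPM.

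The rank order of the loci was shared only weakly by the libraries. Spearman's correlation of counts across the 2596 loci had a median of 0.0671 over the 3 pairs of libraries within a group, and of 0.142 over the 12 pairs between groups. It was -0.0631 between the leaf libraries, 0.0671 between those of stage 6 haustorium and 0.121 between those of haustorium without a stage. The highest value, 0.346, was between leaf replicate 2 and stage 6 haustorium replicate 2, and the lowest, -0.217, between leaf replicate 1 and stage 6 haustorium replicate 2. Across the other loci the medians were 0.371 within and 0.393 between groups. These are correlations across loci, which share the depth of a library and are not independent replicates. The mean abundance of the loci also spans a narrow range, with quartiles at 6.07 and 9.33 CPM. By this measure, a shared label did not go with a higher correlation.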

How the data were processed

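Small RNA was sequenced from leaf and haustorium of *S. hermonthica*. For each library, the authors deposited a raw count of reads per locus, made with ShortStack 4.0.4 (default settings, SHERM assembly) from adapter-trimmed reads. How reads with several alignments were placed is not given in the sources used here, so loci with a near-identical copy are uncertain. Modal-length loci are those of 423 or 424 nt. All 25056 loci entered library totals, CPM and tests.

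The main test was the quasi-likelihood test of edgeR 4.0.16 (R 4.3.3) after TMM scaling and filterByExpr. Benjamini-Hochberg adjustment ran over the 24421 loci tested, with a threshold of 0.05 and 3 residual degrees of freedom in a design of 3 groups. All contrasts share libraries. The SE of an edgeR log2 fold change was derived as its absolute value over the square root of the F statistic of the test. A group at 0 was given 3 reads per library for a lower bound of a fold. These bounds are on CPM over library totals. After TMM scaling they would differ, and they were not computed on that scale. The test was tested on simulated data. DESeq2 1.42.0, other scalings and filters, thinning to the smallest library, a replicate block, and leaving out libraries were the alternatives. A further one, leaving out both libraries that stood apart, was chosen after seeing the data.

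The loci and lists were chosen with earlier results of these data known. Loci were named by rule: the 10 most abundant, the 3 highest and 3 lowest fold changes per contrast among loci of at least 10 CPM without overlap between groups (edgeR called none), the 3 highest counts among loci with a 0, the 3 steadiest, the 3 most abundant in genes, and the 2 closest pairs. Gene spans came from a RefSeq table of 29520 SHERM genes and were joined to loci on contig and position. The genome sequence was not used here. Tables and figures were made in Python 3.11.15 with numpy 2.4.6, pandas 2.3.3, matplotlib 3.10.9 and scipy 1.17.1.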

Additional observations from a re-analysis of the deposited data

Results flagged for a closer look

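In the 4 haustorium libraries, 37 sets of values were looked at with Dixon's criterion (gap over range above 0.829), and 5 were past it. Its chance rate of about 1 set in 20 is for normally distributed values of sets not chosen by them. Most sets here were CPM of loci named for abundance, fold change or a high count beside a 0. The 5 are therefore not compared with that rate. Cluster_20642 had 414 CPM in stage 6 haustorium replicate 2, against 13.5 CPM in replicate 1 and 0.955 and 1.77 CPM in haustorium without a stage. Cluster_24629 had 58.7 CPM in stage 6 haustorium replicate 2, against 0.330 CPM in replicate 1 and 0 in both libraries without a stage. Cluster_23155 had 19.99 CPM in stage 6 haustorium replicate 2, against 0.989 CPM in replicate 1 and 2.74 and 0 CPM without a stage. Cluster_19579 had 47.5 CPM in stage 6 haustorium replicate 2, against 0 in replicate 1 and 0.239 and 3.39 CPM without a stage. Cluster_1965 differed in that replicate 1 of stage 6 haustorium was the high one, with 10.2 CPM, against 0.288 CPM in replicate 2 and 0 and 0.294 CPM without a stage. In 4 of the 5 loci the library apart was stage 6 haustorium replicate 2. It had the second highest share of reads in modal-length loci, and the part of library preparation in these values was not tested.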

How the results depend on the processing

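With 2 libraries per group and SEs near 1 on the log2 scale, edgeR called neither moderate nor large differences at this depth and spread. For stage 6 haustorium against haustorium without a stage, Cluster_11645 had a log2 fold change of 6.97 (SE 0.93) and an edgeR adjusted p of 0.999. A result of 0 loci called is therefore not read as absence of a difference. No edgeR alternative called a modal-length locus in any contrast. DESeq2 called 16 for leaf against haustorium, beside 0.391% higher and 0.411% lower among all loci. It called 6 for leaf against stage 6 haustorium, beside 0.231% and 0.231%. For stage 6 haustorium against haustorium without a stage it called 34, beside 0.801% and 0.83%. With a replicate block, 0 loci were called in each contrast and the median log2 fold changes were 0.06, 0.00178 and 0.02. Deviations of same-numbered leaf and stage 6 haustorium libraries had a weak negative correlation across loci (-0.14), and a crossed replicate block, added after seeing the data, also called 0 loci in each contrast. Leaving out libraries in turn moved the median log2 fold change between -0.27 and 0.39 for leaf against stage 6 haustorium, the highest being without stage 6 haustorium replicate 2. For stage 6 haustorium against haustorium without a stage it moved between -0.24 (without stage 6 haustorium replicate 2) and 0.50 (without haustorium replicate 1). It was 0.93 with library totals, and -0.25 without both libraries that stood apart, an alternative added after seeing the data. For leaf against haustorium (0.10 with all libraries) it lay between -0.16, with leaf replicate 1 left out, and 0.36, with stage 6 haustorium replicate 2 left out. Thinning to the smallest library gave 6.91% of loci with 0 reads in leaf and 12.1% in haustorium without a stage. Leaf was above all haustorium libraries for 125 loci after TMM (4.82%, against 4.85% of all loci), for 352 without both libraries that stood apart (13.6%, against 15.0%), and for 48 to 1079 loci when libraries were left out in turn. These were 290 without stage 6 haustorium replicate 2 (11.2%, against 10.6%), 1079 without leaf replicate 2 (41.6%, against 39.0%), 59 without stage 6 haustorium replicate 1 (2.27%, against 2.74%) and 53 without haustorium replicate 1 (2.04%, against 2.81%). Leaf was below them for 116 loci after TMM (4.47%, against 3.75%), for 647 without both libraries that stood apart (24.9%, against 24.2%), and for 47 to 616 in turn. These were 616 without leaf replicate 1 (23.7%, against 20.5%), 100 without leaf replicate 2 (3.85%, against 5.95%), 131 without haustorium replicate 3 (5.05%, against 4.62%) and 92 without stage 6 haustorium replicate 1 (3.54%, against 3.75%). With only the longer of both lengths, 1144 of 1538 loci had reads in every library. Loci named for a contrast were chosen for no overlap in CPM between its groups. Their direction was thus largely fixed by the choice, and keeping it is no sign of a stable difference. No log2 fold change of these loci changed direction, but sizes moved. Of 18 such values, 16 moved by over 1 on the log2 scale when some library was left out, the exceptions being Cluster_22072 and Cluster_4971. Cluster_4971, Cluster_18434 and both contrasts of Cluster_11645 passed the threshold in DESeq2 only. Leaving out a library for the lower bounds of folds, and TMM scaling of single loci, were added after seeing the data. The cause of these changes was not tested.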
